A study of Mus musculus with 6 samples.

Results

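Integrins of blood cells were followed through 10 subunit genes, Itgam, Itgax, Itgal, Itgb2, Itga4, Itgb1, Itgb7, Itga6, Itga2b and Itgb3. They were taken by name, from probe sets that the platform annotation gives exactly 1 symbol, and all 10 were found among the 17097 genes measured. They are read by 21 probe sets. The brightest probe set of a gene, by its mean over the 6 arrays, stands for it, and the others are shown beside it. The 3 wild-type arrays and the 3 arrays labelled HDAC7 deficient hold pro-B cells, an early stage of B cell development in bone marrow, sorted as B220+CD43+IgM- cells. The mice of the second group are described as conditional for HDAC7, a histone deacetylase of class IIa, and the question of the comparison is whether genes of other lineages stay silent without it. The sources used here do not give strain, age, sex or the driver of the deletion. The samples of each group are called biological triplicates, without a statement that each came from a separate animal. The p-values therefore set a difference against the spread between these samples, which may not be the spread between animals.

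An integrin is a pair of membrane proteins, an alpha and a beta subunit, that binds matrix or a protein of another cell. Leukocytes keep their integrins in a bent, weakly binding form until signals inside the cell bring talin and kindlin to the beta tail, which opens the receptor. The beta 2 subunit pairs with alpha L, alpha M or alpha X, the beta 1 subunit with alpha 4 or alpha 6 among others, and the beta 7 subunit with alpha 4. The alpha IIb and beta 3 subunits form the fibrinogen receptor of platelets. In bone marrow, alpha 4 beta 1 holds B cell precursors to stromal cells that carry VCAM-1, while alpha M beta 2 and alpha X beta 2 are best known from myeloid cells.

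Itgam and Itgax lie next to each other on mouse chromosome 7, with the related Itgad beyond Itgax. They had the largest differences of the 10 genes, and the 250 bases before their RefSeq starts (assembly GRCm38.p6, plus strand) are printed for this reason. The windows are chr7:128062390-128062639 for Itgam and chr7:128129300-128129549 for Itgax. Capitals mark GAGGAA, read on either strand, the purine-rich core bound by the myeloid and B cell factor PU.1 and its relatives.
Itgam: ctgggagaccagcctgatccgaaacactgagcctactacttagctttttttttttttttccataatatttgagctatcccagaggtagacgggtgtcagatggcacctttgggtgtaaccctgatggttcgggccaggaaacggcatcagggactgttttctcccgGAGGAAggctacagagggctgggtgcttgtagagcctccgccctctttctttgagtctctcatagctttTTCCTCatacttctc
Itgax: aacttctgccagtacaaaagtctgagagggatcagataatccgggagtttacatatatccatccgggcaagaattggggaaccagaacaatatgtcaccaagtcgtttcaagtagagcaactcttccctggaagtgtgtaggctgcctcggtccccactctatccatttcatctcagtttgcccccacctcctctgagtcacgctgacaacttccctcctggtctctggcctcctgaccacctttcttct
The Itgam window holds GAGGAA on the plus strand at bases 84 to 79 before the start and on the minus strand at bases 15 to 10, and the Itgax window holds none. Of 32851 mouse promoter windows of the same length, 23.3% hold these letters. A window was given for 6 of the 10 genes, and 3 of them hold GAGGAA, namely Itgam, Itgb1 and Itga2b. No other motif was searched. No binding was measured, and a match of letters is a description alone.

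Values are log2 expression per probe set, so a difference of 1 is a doubling, and differences are HDAC7 deficient minus wild type. Array medians over 45037 probe sets were 5.83 to 6.15. Wild-type replicate 3 stood apart, with correlations of 0.70 to 0.82 with the other arrays. On it the Actb probe set of the 3' end exceeded that of the transcript's middle by 1.69, against 0.16 to 0.26 elsewhere. The level of Xist, the RNA of the inactive X chromosome, was high (8.51 to 11.40) on this array and on replicates 2 and 3 of HDAC7 deficient, and low (4.87 to 5.38) on the other 3. The spike-in controls of the hybridisation were higher on the same 3 arrays. Hdac7 does not check the labels here, since the deleted part is not given: it was 9.06, 9.48 and 7.31 in wild type and 9.95, 9.54 and 9.27 on the arrays labelled HDAC7 deficient. Of the pro-B markers, Dntt, the terminal transferase of V(D)J joining, was 7.37 to 10.64 and the recombinase gene Rag1 7.59 to 10.14. Elane, the elastase of neutrophil precursors, was 7.65 to 11.50. Of the platelet chemokine genes, Pf4 was 5.50 to 6.61, and Ppbp had wild-type and HDAC7-deficient means of 4.55 ± 0.42 and 4.19 ± 0.14 (SD, n = 3 each). In such bulk RNA a change in the number of cells of a type and a change in RNA per cell cannot be told apart.

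None of the 10 genes passed an adjusted p of 0.05 in limma, and neither did any other gene (0% of 17097 called). At an unadjusted p under 0.05, 602 genes were higher (3.52%) and 1563 lower (9.14%), and of the 10 integrin genes 1, Itgam, was higher and 0 were lower. The differences were above 0 for 9 of the 10 genes with a median of 0.66, against 48% of all genes with a median of -0.032. The count above 0 was 10 with every array centred on its median, which moves the median of all genes by 0.14, and 6 with quantile normalization, under which Itgal, Itga4 and Itgb1 turned below 0. Wild-type replicate 3 was the lowest array for 9 of the 10 and the highest for Itga4. Its distance from the mean of the other wild-type arrays depended on the mean level of a gene. From the dimmest to the brightest 25% of all genes the median distance was 0.51, 0.54, -0.31 and -1.36. With wild-type replicate 3 left out, 8 of the 10 differences were above 0 with a median of 0.20, against 43.2% of all genes and a median of -0.047. In the brighter 50% of genes, where all 10 lie, 59.3% were then above 0 with a median of 0.067. In that fit 2 of the 10, Itgam and Itgax, were higher at an unadjusted p under 0.05 and 0 lower, against 5.19% and 8.84% of all genes. Of the 10, 7 belong to the top 25% of genes by mean level, in which 89.6% of genes were above 0 with a median of 0.56. Without that array the median of these bright genes was 0.058. All 10 lie in the brighter 50% of genes, where 77.8% were above 0 with a median of 0.42, against 18.2% and -0.33 in the dimmer 50%.

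**Figure D1:**
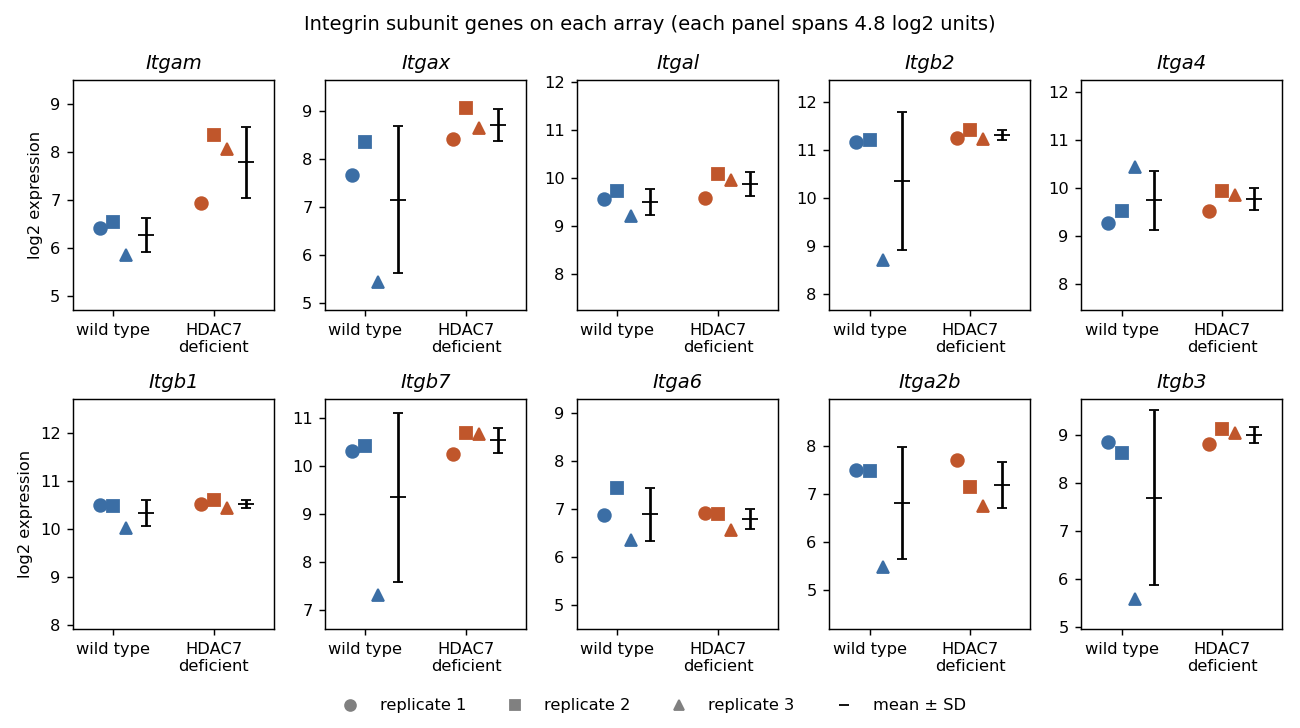
Log2 expression of each of the 10 integrin genes on the 3 wild-type (blue) and 3 HDAC7-deficient (orange) arrays, with the replicate shown by the symbol and the mean and SD in black. Wild-type replicate 3 (blue triangle) is the lowest array in 9 panels and the highest in the Itga4 panel, and Itgam, Itgax and Itgb2 are the genes whose groups do not overlap.

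Of the beta 2 family, Itgam, the alpha M subunit (CD11b) of the complement receptor Mac-1, differed by the most relative to its error. It was 6.43, 6.54 and 5.87 in wild type and 6.95, 8.35 and 8.07 in HDAC7 deficient. The groups did not overlap, and HDAC7-deficient replicates 2 and 3 lay more than 1 log2 unit above replicate 1. The means were 6.28 ± 0.36 and 7.79 ± 0.74 (SD, n = 3 each), a difference of 1.51 ± 0.42 (SE) with a 95% interval of 0.52 to 2.50 and a limma adjusted p of 0.377. Without wild-type replicate 3 the difference was 1.31 (limma adjusted p = 0.252). HDAC7-deficient replicate 1 lay 0.47 above the mean of the Xist-low wild-type arrays, and the other HDAC7-deficient arrays lay 2.35 above the single Xist-high wild-type array.

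Itgax encodes alpha X (CD11c), the integrin used to mark dendritic cells. Its values were 7.68, 8.36 and 5.44 in wild type and 8.42, 9.07 and 8.65 in HDAC7 deficient. The groups did not overlap, yet HDAC7-deficient replicate 1 exceeded wild-type replicate 2 by little. The means were 7.16 ± 1.53 and 8.71 ± 0.33 (SD, n = 3 each). The difference of 1.55 ± 0.73 had a 95% interval of -0.17 to 3.27 and a limma adjusted p of 0.377, and was 0.69 without wild-type replicate 3 (limma adjusted p = 0.344).

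Itgb2 encodes beta 2 (CD18), the chain that all of these alpha subunits need to reach the surface. It was 11.18, 11.22 and 8.70 in wild type and 11.26, 11.43 and 11.23 in HDAC7 deficient. Apart from wild-type replicate 3 the arrays lay close together, and HDAC7-deficient replicate 3 exceeded wild-type replicate 2 by a narrow margin. The difference of 0.94 ± 0.68 (limma adjusted p = 0.433) was 0.11 without wild-type replicate 3 (limma adjusted p = 0.566).

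Itgal encodes alpha L (CD11a) of LFA-1, which binds ICAMs and is carried by most leukocytes. Its brighter probe set read 9.57, 9.73 and 9.21 in wild type and 9.59, 10.08 and 9.96 in HDAC7 deficient, so that the groups overlapped. The difference was 0.37 ± 0.31, with a 95% interval of -0.37 to 1.11 and 0.467 as its limma adjusted p. The dimmer one, 1425367_PM_at, had a difference of 1.16 ± 0.68, or 0.37 without wild-type replicate 3, which lay 2.37 below the other wild-type arrays there and 0.44 below them in the brighter probe set.

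Groups without overlap, higher in HDAC7 deficient, were thus found for 3 of the 10 genes, all of the beta 2 family, against 9.45% of all genes, and for 0 that were lower, against 16.8%. Without wild-type replicate 3 they were found for Itgam, Itgax, Itgb2 and Itga4, 4 of the 10, against 11.8% of all genes, and for 0 that were lower, against 19%. Itgb2 counts here by the narrow margin of 11.23 against 11.22. All 10 genes lie in the brighter 50% of genes, where 77.8% of differences were above 0 with all arrays. The share without overlap among genes of that level was not computed. Marker lists of other cells are given beside the subunits of the beta 2 family. The mean of 12 neutrophil markers was 10.45, 10.27 and 8.90 in wild type and 10.31, 10.80 and 10.78 in HDAC7 deficient, so that HDAC7-deficient replicates 2 and 3 were highest there as for Itgam. Of these 12 markers 10 had a difference above 0 (median 0.81), or 8 without wild-type replicate 3 (median 0.29). Elane itself was 11.50, 10.97 and 7.65 in wild type and 10.79, 11.04 and 10.96 in HDAC7 deficient, a difference that was -0.30 without wild-type replicate 3. Mpo, Prtn3 and Ctsg were, like Elane, highest on wild-type replicate 1, and differed by -0.14, -0.51 and -0.42 without wild-type replicate 3. S100a8 and S100a9 were highest on wild-type replicate 3, and Csf3r on HDAC7-deficient replicate 1. Ltf, Camp, Ngp, Lcn2 and Mmp8 were highest on HDAC7-deficient replicates 2 and 3. The mean of 13 pro-B markers was 9.88, 10.12 and 8.81 in wild type and 10.33, 9.60 and 9.54 in HDAC7 deficient, so that replicates 2 and 3, where Itgam was high, were the lowest HDAC7-deficient arrays. Of these 13 markers 9 had a difference above 0 (median 0.13), or 3 without wild-type replicate 3 (median -0.25). The mean of 12 macrophage and monocyte markers spanned 6.56 to 6.68 in wild type and 6.71 to 7.06 in HDAC7 deficient. Of these 12 markers 8 had a difference above 0 (median 0.17), or 11 without wild-type replicate 3 (median 0.24). Csf1r, the receptor of macrophage growth factor, differed by 0.019 and by -0.044 without that array, and the macrophage receptor gene Adgre1 by -0.26 and 0.22. The scavenger receptor gene Cd163 differed by 0.38 and 0.42, and was the only 1 of the 12 whose groups did not overlap. It read low on all arrays, at 4.81 to 5.32. The mean of 7 dendritic cell markers was 7.16 to 8.51 in wild type and 8.41 to 8.81 in HDAC7 deficient, with 5 of 7 differences above 0, or 4 without wild-type replicate 3. The mean of 11 natural killer and T cell markers was 6.89 to 7.89 in wild type and 7.65 to 7.95 in HDAC7 deficient. Of these 11 markers 7 had a difference above 0 (median 0.45), or 5 without wild-type replicate 3 (median -0.064). Among them Cd3e, a chain of the T cell receptor complex, differed by 0.32, Prf1 by 0.71 and Cd6, a surface protein of T cells, by -0.71. Of the 11, groups did not overlap for 2 that were higher, Cd3e and Prf1, and 1 that was lower, Cd6. The part of such cells in the differences of Itgam and Itgax was not tested.

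**Figure D2:**
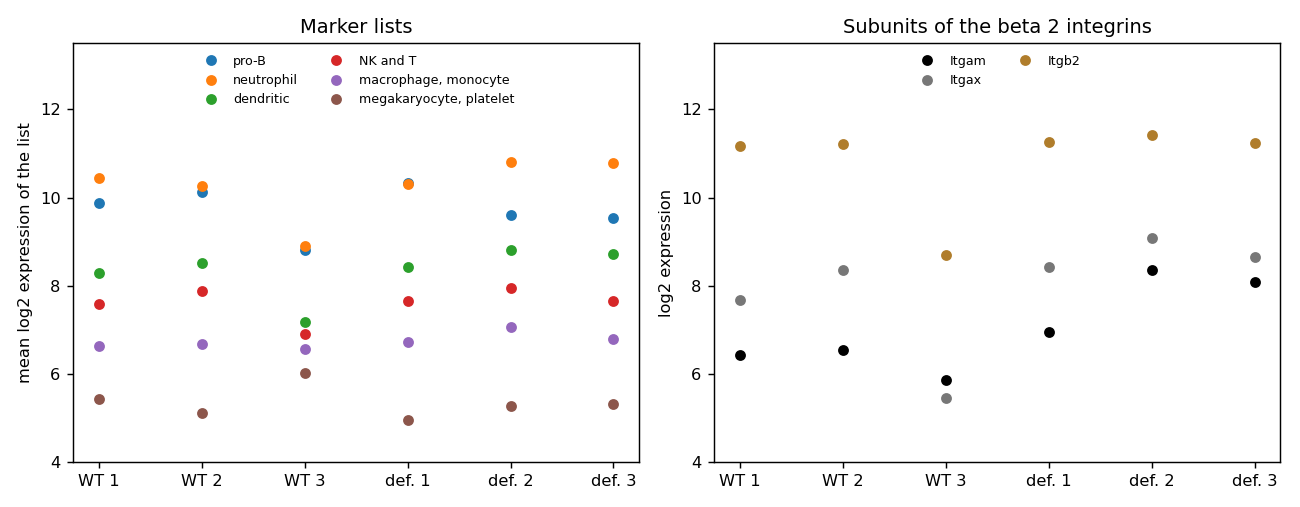
Mean log2 expression of 6 marker lists (left) and log2 expression of Itgam, Itgax and Itgb2 (right) on each wild-type (WT) and HDAC7-deficient (def.) array. The neutrophil list is at 10.80 and 10.78 on HDAC7-deficient replicates 2 and 3, the arrays on which Itgam is at 8.35 and 8.07, and at 8.90 on wild-type replicate 3, where Itgam is at 5.87. Single neutrophil markers depart from this mean, with S100a8 and S100a9 highest on wild-type replicate 3 and Elane on wild-type replicate 1.

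The genes nearest to Itgam over the 6 arrays, by the root mean square difference after each gene was centred on its own mean, were Adam11 (0.104), Tnfaip3 (0.136), Chil4 (0.137), Gpr183 (0.148) and AA467197 (0.170). Tnfaip3 encodes A20, an inhibitor of NF-kB signalling, and was 8.26, 8.49 and 7.79 in wild type and 8.91, 10.05 and 10.22 in HDAC7 deficient. Gpr183 encodes EBI2, an oxysterol receptor that guides B cells, and was 7.09, 7.26 and 6.80 against 7.82, 9.06 and 9.15. In all 5 the groups did not overlap and HDAC7-deficient replicates 2 and 3 were the highest arrays, as the choice by likeness to Itgam implies. Their differences were 1.32 to 1.63.

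Of the lymphocyte homing integrins, Itga4, the alpha 4 subunit (CD49d) of VLA-4, gave different answers with different probe sets. The brightest (1436037_PM_at) read 9.27, 9.52 and 10.44 in wild type and 9.52, 9.94 and 9.87 in HDAC7 deficient, so that wild-type replicate 3 was the highest array. The difference was 0.032 ± 0.39, with a 95% interval of -0.90 to 0.96 and a limma adjusted p of 0.959. Without wild-type replicate 3 it was 0.38, and the groups then did not overlap (limma adjusted p = 0.387). The probe set 1450155_PM_at read 8.84, 9.06 and 7.74 against 8.95, 9.26 and 9.41, so that the same wild-type array was the lowest. Across the 5 probe sets of Itga4 the differences were 0.032, 0.065, 0.66, 0.71 and 0.74, and wild-type replicate 3 lay between 1.29 below and 1.05 above the mean of the other wild-type arrays. Without it the 5 differences were 0.25 to 0.75. The largest came from the dimmest probe set (1427615_PM_at), with 4.37, 4.54 and 4.49 in wild type and 4.90, 5.39 and 5.33 in HDAC7 deficient, a difference of 0.74 ± 0.17 whose limma adjusted p over probe sets was 0.300.

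Itgb1 encodes beta 1 (CD29), the chain shared by the very late antigens. Its brightest probe set read 10.49, 10.48 and 10.03 in wild type and 10.51, 10.60 and 10.43 in HDAC7 deficient, and the groups overlapped. The difference was 0.18 ± 0.29, with a 95% interval of -0.51 to 0.87 and a limma adjusted p of 0.673, and was 0.026 without wild-type replicate 3. Among its other probe sets 1426918_PM_at differed by 0.99 and 1427771_PM_x_at by 0.35, or by 0.18 and 0.14 without wild-type replicate 3. The probe sets 1426920_PM_x_at and 1426919_PM_at read 3.93 to 4.14 on all arrays and gave differences of 0.035 and 0.0097. The x in a probe set name marks probes that can also match transcripts of other genes.

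Itgb7, the beta 7 subunit of the gut homing receptor of lymphocytes, was 10.31, 10.42 and 7.33 in wild type and 10.25, 10.70 and 10.68 in HDAC7 deficient. Wild-type replicate 3 lay 3.04 below the other wild-type arrays, and HDAC7-deficient replicate 1 lay below both of these. The difference of 1.19 ± 0.82 (limma adjusted p = 0.421) was 0.17 without wild-type replicate 3.

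Itga6, the alpha 6 subunit (CD49f) of laminin receptors, was the only one of the 10 with a difference below 0, and turned to 0.038 with median centring, while Itgal, Itga4 and Itgb1 joined it below 0 with quantile normalization. It read 6.87, 7.45 and 6.35 in wild type and 6.92, 6.90 and 6.56 in HDAC7 deficient, and the groups overlapped. The difference was -0.097 ± 0.33, with a 95% interval of -0.87 to 0.67 and a limma adjusted p of 0.844. The dimmer probe set, 1422445_PM_at, read 6.75, 6.86 and 6.77 in wild type and 6.68, 6.20 and 6.08 in HDAC7 deficient. There the groups did not overlap, and wild-type replicate 3 lay close to the other wild-type arrays. The difference was -0.48 ± 0.24, and -0.49 without that array (limma adjusted p over probe sets 0.361 and 0.388).

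**Figure D3:**
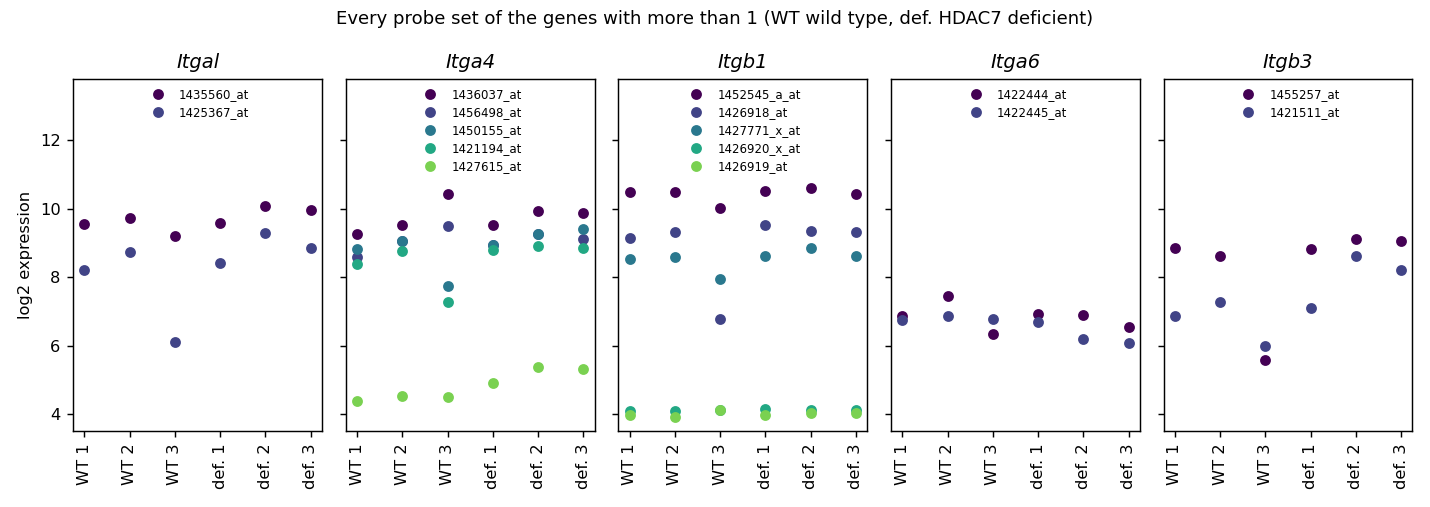
Log2 expression on each wild-type (WT) and HDAC7-deficient (def.) array of every probe set of the 5 genes with more than 1, one colour per probe set. On wild-type replicate 3 the probe sets of Itga4 part, with 1436037_PM_at at 10.44 and 1450155_PM_at at 7.74, and those of Itgal lie at 9.21 and 6.12.

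Of the platelet type subunits, Itgb3 encodes beta 3 (CD61), which also pairs with alpha V. It was 8.87, 8.64 and 5.59 in wild type and 8.82, 9.13 and 9.05 in HDAC7 deficient. Apart from wild-type replicate 3 the arrays lay close together and the groups overlapped. The difference of 1.30 ± 0.84 (limma adjusted p = 0.408) was 0.25 without that array (limma adjusted p = 0.575). Its dimmer probe set (1421511_PM_at) read 6.88, 7.26 and 5.99 in wild type and 7.11, 8.61 and 8.20 in HDAC7 deficient, so that HDAC7-deficient replicates 2 and 3 were high and replicate 1 lay within the wild-type range. The difference was 1.26 ± 0.50, or 0.90 without wild-type replicate 3 (limma adjusted p over probe sets 0.353 and 0.363).

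Itga2b encodes alpha IIb (CD41), the partner of beta 3 on platelets and a mark of early blood progenitors. It was 7.50, 7.48 and 5.46 in wild type and 7.69, 7.13 and 6.74 in HDAC7 deficient, and the groups overlapped. The difference was 0.38 ± 0.59, with a 95% interval of -1.02 to 1.77 and a limma adjusted p of 0.667. Without wild-type replicate 3 it turned to -0.30 (limma adjusted p = 0.673). The mean of 9 megakaryocyte and platelet markers was 5.11 to 6.02 in wild type and 4.96 to 5.30 in HDAC7 deficient. It was highest on wild-type replicate 3, the array on which Itga2b and Itgb3 were lowest. All 9 markers lie in the dimmer 50% of genes, and Itga2b and Itgb3 in the brighter 50%. The median distance of that array from the other wild-type arrays was 0.51 and 0.54 within the dimmer 50%. It was -0.31 and -1.36 in the brighter groups of genes that hold Itga2b and Itgb3. Whether the markers and these subunits parted by more than their levels imply was not tested.

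**Figure D4:**
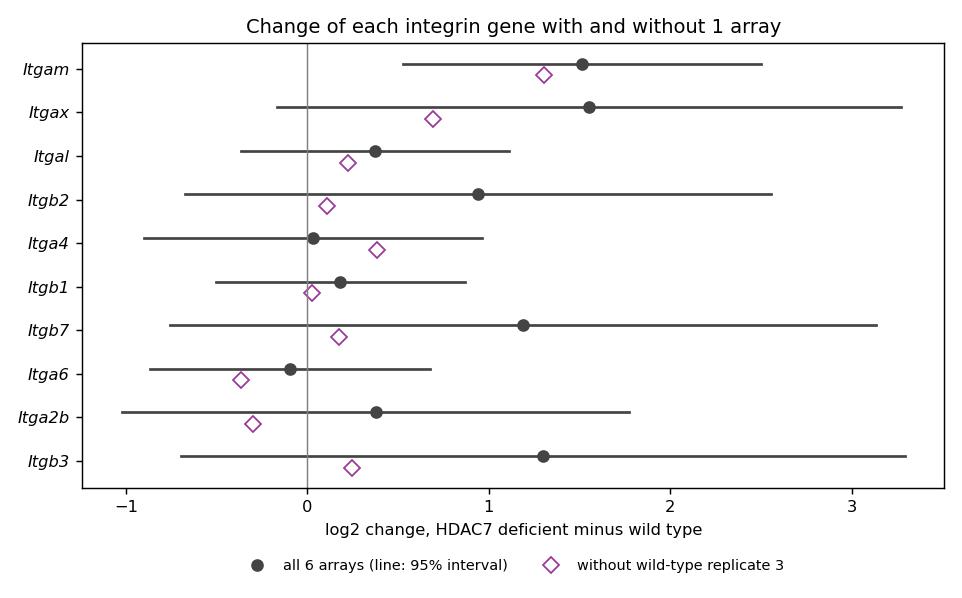
Log2 difference of each integrin gene, HDAC7 deficient minus wild type, from all 6 arrays with its 95% interval (circles and lines) and without wild-type replicate 3 (diamonds). Differences above 1 number 4 with all arrays (Itgam, Itgax, Itgb7 and Itgb3) and 1 without that array (Itgam).

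Over the 21 probe sets, groups did not overlap for 7 that were higher in HDAC7 deficient and 1 that was lower, against 11.5% and 14.9% of all probe sets. At an unadjusted p under 0.05, 3 were higher and 0 lower, against 5.97% and 8.11%, and none passed after adjustment in limma. Wild-type replicate 3 lay below both other wild-type arrays in 15 of the 21, against 34.2% of all probe sets.

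The remaining integrin subunits mostly had differences below 0. Of 13 measured, 1 had a difference above 0, or 5 with quantile normalization and 3 with median centring. The median was -0.17 and the range -0.69 to 0.18. Of the 13, 11 lie in the dimmer 50% of all genes, in which 18.2% were above 0 with a median of -0.33, so a count this low is near that background. With wild-type replicate 3 left out 3 were above 0 and the median was -0.10, against 27.0% and -0.14 in the dimmer 50% of genes. None passed in limma after adjustment, and at an unadjusted p under 0.05 0 were higher and 2 lower, against 3.52% and 9.14% of all genes. Itga5, the alpha 5 subunit of the fibronectin receptor, was 5.99, 5.84 and 5.62 in wild type and 5.55, 5.08 and 5.11 in HDAC7 deficient, a difference of -0.57 ± 0.20. Its groups did not overlap with or without wild-type replicate 3. The epithelial subunit Itgb6 differed by -0.47 ± 0.19, Itgb5 by -0.41 ± 0.20, and Itgae, the alpha E subunit of lymphocytes in epithelia, by -0.52 ± 0.25, all with groups that did not overlap. The limma adjusted p was 0.377 for each of the 4. Over the 13, groups without overlap were lower for these 4 and higher for 0, against 16.8% and 9.45% of all genes. Without wild-type replicate 3 they were lower for 5 and higher for 1, against 19% and 11.8%. The share without overlap in the dimmer 50% of genes was not computed.

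Of 18 measured genes that switch integrins on, 16 had a difference above 0 (median 0.84), or 14 (median 0.18) without wild-type replicate 3. Of the 18, 15 lie in the brighter 50% of genes, and all of these were above 0, against 77.8% of genes there (89.6% in the top 25%). Without wild-type replicate 3, 59.3% of the genes in the brighter 50% were above 0. None passed in limma after adjustment, and at an unadjusted p under 0.05 2 were higher and 1 lower, against 3.52% and 9.14% of all genes. Apbb1ip, which encodes RIAM, the adaptor that joins the small GTPase Rap1 to talin, was 6.56, 6.55 and 6.90 in wild type and 7.49, 7.86 and 7.88 in HDAC7 deficient. All 3 HDAC7-deficient arrays lay above all wild-type arrays, and wild-type replicate 3 was not low. The difference was 1.07 ± 0.25, or 1.19 without that array (limma adjusted p = 0.377 and 0.144). Fyb, which encodes the adaptor ADAP of T cells and myeloid cells, was 8.15, 8.58 and 7.10 against 9.13, 9.25 and 9.13. Its difference was 1.23 ± 0.42, or 0.81 without wild-type replicate 3 (limma adjusted p = 0.377 and 0.209). Tln2, the talin of muscle and brain, differed by -1.03 ± 0.32 and Fermt2, the kindlin of adherent cells, by -1.12 ± 0.53. Without wild-type replicate 3 they differed by -0.76 and -0.56. The other measured talin and kindlin genes, Tln1 and Fermt3, went the other way, by 1.06 ± 0.79 and 2.03 ± 1.41. Without that array, on which Fermt3 was 4.92, these were 0.081 and 0.21. Tln2 and Fermt2 lie in the dimmer 50% of genes, and Tln1 and Fermt3 in the brighter 50%. Whether the genes parted by more than their levels imply was not tested.

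Of 19 genes that act downstream at the adhesion site, 15 had a difference above 0 (median 0.91), or 13 (median 0.20) without wild-type replicate 3. Of the 19, 18 lie in the brighter 50% of genes, and 15 of these were above 0, near the 77.8% of all genes there. Without wild-type replicate 3 that share of genes was 59.3%. None passed in limma after adjustment, and at an unadjusted p under 0.05 1 was higher and 2 lower, against 3.52% and 9.14% of all genes. Actn1, the actin crosslinker alpha-actinin, was 7.04, 7.76 and 5.70 in wild type and 7.80, 9.45 and 9.33 in HDAC7 deficient, with replicates 2 and 3 of the latter again high. Its difference was 2.03 ± 0.66, or 1.46 without wild-type replicate 3. Vcl, which encodes vinculin, differed by 1.06 ± 0.45, and Parva and Parvb, the parvins of the complex with integrin-linked kinase, by -0.94 ± 0.36 and -0.63 ± 0.23.

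Of 22 measured genes of integrin ligands, 8 had a difference above 0 (median -0.24), or 10 (median -0.13) without wild-type replicate 3. Of the 16 in the dimmer 50% of genes 2 were above 0, near the 18.2% of all genes there, and of the 6 in the brighter 50% all 6, against 77.8%. Without wild-type replicate 3 these shares of all genes were 27.0% and 59.3%. None passed in limma after adjustment, and at an unadjusted p under 0.05 0 were higher and 4 lower, against 3.52% and 9.14% of all genes. These were the laminin chain Lamb1 (-2.13 ± 0.67), the junction protein F11r that LFA-1 binds (-0.45 ± 0.16), the matrix gene Tnc (-1.03 ± 0.39) and vitronectin, Vtn (-0.74 ± 0.30). Lamb1 was 6.69, 5.41 and 8.16 in wild type and 4.36, 4.24 and 5.26 in HDAC7 deficient, so that the wild-type arrays spread over more than the difference. Without wild-type replicate 3 it differed by -1.42.

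**Figure D5:**
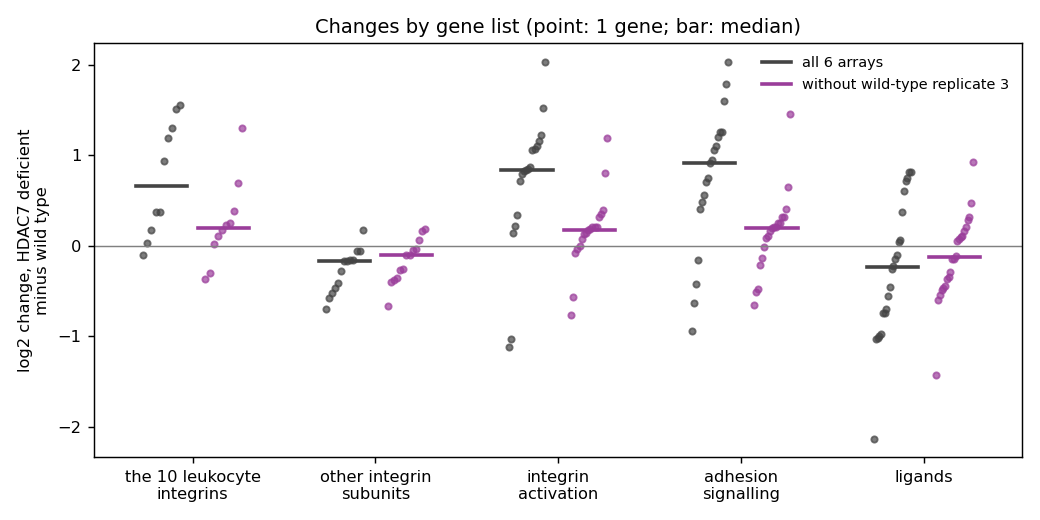
Log2 differences, HDAC7 deficient minus wild type, of the measured genes of 5 lists with all 6 arrays (grey) and without wild-type replicate 3 (purple), with the median as a bar. The median of the 10 leukocyte integrins moves from 0.66 to 0.20, that of the activation genes from 0.84 to 0.18 and that of the adhesion signalling genes from 0.91 to 0.20, while the other integrin subunits move from -0.17 to -0.10.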

How the data were processed

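The authors deposited log2 expression values, 1 per probe set and array, of Affymetrix perfect-match mouse arrays; the log2 scale was read from their range, while the sources used here do not give the summarization, normalization or software. Per the labels' protocols, whole transcriptome amplification preceded labelling. Of 45141 probe sets 104 controls were set aside. Platform annotation gave 1 symbol for 28898, several for 551 and none for 15588; 28689 were matched by Entrez number to RefSeq symbols (GRCm38.p6). Genotypes were compared in limma 3.58.1 (R 4.3.3) over all 17097 genes, and over all 45037 probe sets for single probe sets, with an intensity trend, two-sided tests, Benjamini-Hochberg adjustment and no filter on dim probe sets. With 3 arrays against 3 the smallest exact permutation p is 0.1. Arrays were also divided by Xist level. The integrin genes, the 4 related gene lists and the 6 marker lists were chosen with earlier results of these data known. Named were all integrin genes, up to 4 genes per related list by smallest p, the 5 genes nearest to Itgam, Hdac7 and fixed markers, of which 1 is not reported here. The fit was tested on simulated data. Alternatives were other normalizations, filters, probe set choices, variance models, blocks and leaving out each array. Figures were drawn with matplotlib 3.10.9. The number of arrays limits the precision.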

Additional observations from a re-analysis of the deposited data

Results flagged for a closer look

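The difference had opposite signs in the 2 divisions of the arrays by Xist level for 4 of the 10 integrin genes, Itgal, Itga4, Itgb7 and Itga6, against 20.4% of all genes. In Itga4 and Itgb7 every array followed the opposite signs. For Itga4 the Xist-low HDAC7-deficient array lay 0.13 above the mean of the Xist-low wild-type arrays, and the Xist-high arrays differed by -0.54. These come from its brightest probe set. Of its 5 probe sets 1456498_PM_at also had opposite signs (0.14 and -0.32), while 1450155_PM_at, 1421194_PM_at and 1427615_PM_at were above 0 in both divisions (0.0028 and 1.59 in the first of these, 0.45 and 0.87 in the last). For Itgb7 the values were -0.12 and 3.36, for Itgal -0.057 and 0.81, and for Itga6 -0.24 and 0.38. The difference between the divisions was not tested, and each division holds a single array of one genotype, in the Xist-high division wild-type replicate 3.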

How the results depend on the processing

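The number of genes passing was 0 with all 6 arrays and with any 1 of them left out. Of 170 alternative values for the 10 integrin genes 150 kept their direction and their side of the threshold, 16 reversed, and the other 4 passed only with array weights. Itgam, Itgax, Itgb2 and Itgb3 kept their direction in all 17 alternatives, with ranges of 0.47 to 1.93, 0.40 to 2.15, 0.066 to 1.37 and 0.067 to 1.88. Some of the 17 cannot change the difference of a gene, only its p. These are the filters on dim genes, the fit without an intensity trend and the replicate block. The choice of probe set cannot change it either in genes that have only 1. A kept direction there was fixed in advance. Array weights gave 8452 genes, with Itgam at 1.68 and Itgax at 1.21 (limma adjusted p = 6.48e-04 and 0.00149, ranges over the alternatives up to 0.676), and Itga2b reversed to -0.34. They set wild-type replicate 1 at 8.68 and the other wild-type arrays at 0.47 and 0.07, so 1 array stood for the group, and limma's default weights did not converge. The Xist division as a block without wild-type replicate 3 gave 4 genes (Fos, Fosb, Jun and H1f2), Itgal -0.057 (other probe set -0.067) and Itgb7 -0.12, and a median of 0.022 for the adhesion signalling genes. In that fit the difference rests on HDAC7-deficient replicate 1 against wild-type replicates 1 and 2. The Xist block alone gave Itga4 -0.21, Itga6 0.068, 1456498_PM_at of Itga4 -0.090 and 1426919_PM_at of Itgb1 -0.026. Quantile normalization gave Itgal -0.0014, Itga4 -0.21, Itgb1 -0.070, 1456498_PM_at -0.36 and 1427771_PM_x_at -0.15, and median centring gave Itga6 0.038. Leaving out 1 array gave ranges of -0.21 to 0.38 for Itga4, -0.37 to 0.18 for Itga6, -0.30 to 0.72 for Itga2b, -0.17 to 0.30 for 1456498_PM_at and -0.027 to 0.065 for 1426919_PM_at. The causes of these reversals were not tested. The median of the other integrin subunits was -0.033 with median centring, -0.28 and -0.42 without the dimmest 25% and 50% of genes (9 and 2 genes left), -0.26 as the mean over probe sets, -0.47 with the most variable probe set, -0.24 with the Xist block, -0.23 with that block and without wild-type replicate 3, and -0.27 to -0.10 with 1 array left out. That of the ligands was 0.74 without the dimmest 50% (6 genes left). Between arrays of like replicate number in the 2 groups, the deviations from the group means correlated by 0.096, 0.21 and 0.48. Arrays of unlike number were not set beside these, so the values do not decide whether the numbers pair the samples. The replicate block gave 1 gene, Hspa1b, and no other call changed.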
